A study of Rattus norvegicus with 2 samples.

Results

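Hmgcs1, Idi1, Fdft1, Sqle, Lss, Cyp51 and Dhcr7 encode enzymes that build cholesterol, and they are 7 of the 25399 genes counted in the single-cell libraries of rat optic nerve cells. They were chosen from the pathway with earlier results of these data known. Their counts of unique molecular identifiers (UMIs, each standing for 1 captured RNA molecule) were followed through groups of cells defined by marker genes. The study made 1 library per genotype: one from WT Sprague Dawley rats and one from Nuc1 rats, which carry a spontaneous insertion in Cryba1, the gene of βA3/A1-crystallin. By their labels, both libraries came from optic nerve at postnatal day 7, and the study's methods describe mixed primary cultures of glia for both genotypes, with no time in culture given for these libraries. How many animals were pooled is not given in the sources used here, and Cryba1 had 0 UMIs in both libraries, so the mutated gene does not check the labels. With 1 library per genotype a difference between genotypes cannot be told apart from a difference between preparations, and no p-value was computed.

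Animal cells make cholesterol from acetyl-CoA by way of mevalonate, isoprene units, squalene and lanosterol, and most enzymes of the route are switched on together by the transcription factor SREBP2 (gene Srebf2) when sterols in the endoplasmic reticulum run low. The brain and optic nerve cannot draw on the cholesterol of plasma lipoproteins, so their cells make their own. Oligodendrocytes need much of it for myelin, and astrocytes make it and pass it on in particles that carry apolipoprotein E.

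The libraries held 34517542 (WT) and 35794685 (Nuc1) UMIs in 2107 and 1929 barcodes. After filtering, 1961 WT cells and 1780 Nuc1 cells remained, with a median of 14050 and 16567.5 UMIs per cell, and 2 barcodes occurred in both libraries. Clustering, done without the genes of sterol metabolism, gave 11 clusters. The oligodendrocyte-lineage-like group held 52 WT cells and 10 Nuc1 cells and was led by Bcas1, Mbp and Olig1. Its 19 lineage markers summed to 14740 counts per 1000000 UMIs of the group (CPM) in WT and 9523 in Nuc1 cells, against 75.3 and 83.1 in fibroblast-like cells, and 3 and 5 of the 19 markers were at 0, Mobp, Neu4 and Ermn among them in both. The astrocyte-like group (108 and 350 cells) was led by Gfap and Fabp7, with Aqp4 at 1782 and 1637 CPM against 1.01 and 6.10 in fibroblast-like cells. The fibroblast-like group joined 4 clusters (1525 and 1151 cells), in which the 9 fibroblast markers summed to 12713 and 7523 CPM. These 4 clusters were not filled alike: the one led by Lum and Penk held 572 WT and 229 Nuc1 cells, and the one led by Inmt and Cyp26b1 held 53 and 366. Smaller groups were ciliated-ependymal-like (14 and 109 cells), macrophage-like (23 and 22), dividing collagen-rich (217 and 112), and an unnamed cluster led by Gldn and Fbln2 (22 and 26).

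The depth behind a level differed greatly between groups. The sum of all UMIs was 23784300 (WT) and 19497236 (Nuc1) for fibroblast-like cells, and for astrocyte-like cells it was 2820539 and 8877717. Oligodendrocyte-lineage-like cells had 786254 and 106793. A count of 0 among the 10 Nuc1 oligodendrocyte-lineage-like cells therefore allows up to 28.1 CPM (3 counts). Intervals are given at the 95% level and reflect counting error alone, not the spread between cells, animals or cultures. Levels are not compared between genes, since the kit captures 3′ ends and captures some transcripts better than others.

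Promoter sequences are shown for 3 of the enzymes, because they stand for the 3 patterns described below. Against fibroblast-like cells, Hmgcs1 was higher in both glial groups, and of these groups Idi1 was higher in the oligodendrocyte lineage alone. Dhcr7 was highest by value in astrocyte-like cells. Each is the stretch of 250 bases before the gene's start in RefSeq (build GRCr8), written 5′ to 3′ on the gene's own strand, with CCAAT boxes on either strand in capitals. Hmgcs1 lies at chr2:53382054-53382303 on the plus strand, Idi1 at chr17:66547525-66547774 on the minus strand, and Dhcr7 at chr1:208444184-208444433 on the plus strand.
Hmgcs1: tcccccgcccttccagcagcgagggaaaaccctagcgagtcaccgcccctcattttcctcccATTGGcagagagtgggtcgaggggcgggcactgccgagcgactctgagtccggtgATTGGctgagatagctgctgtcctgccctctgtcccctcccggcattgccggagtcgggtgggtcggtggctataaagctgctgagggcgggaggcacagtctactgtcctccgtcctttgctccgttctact
Idi1: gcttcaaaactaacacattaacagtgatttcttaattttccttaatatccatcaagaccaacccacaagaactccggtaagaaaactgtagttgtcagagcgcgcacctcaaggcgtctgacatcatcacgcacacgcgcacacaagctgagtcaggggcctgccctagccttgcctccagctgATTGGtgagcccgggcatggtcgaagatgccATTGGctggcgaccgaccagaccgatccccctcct
Dhcr7: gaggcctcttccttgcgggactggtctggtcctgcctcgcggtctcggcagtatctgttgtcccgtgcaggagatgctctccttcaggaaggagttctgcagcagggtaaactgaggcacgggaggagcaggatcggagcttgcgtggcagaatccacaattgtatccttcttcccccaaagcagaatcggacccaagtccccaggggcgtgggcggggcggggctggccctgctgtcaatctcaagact

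The table of promoters held 5 of the 7 members (Hmgcs1, Idi1, Lss, Cyp51 and Dhcr7), and Sqle and Fdft1 are named only. A CCAAT box, the letters CCAAT on either strand, which bind the factor NF-Y, was in 3 of these 5 windows (Hmgcs1, Idi1 and Lss) and in 34.3% of all 27457 windows of the same length. The GC box GGGCGG, a site for Sp1, was in 4 of 5 (all but Idi1) against 32.4% of all. The sterol regulatory element written as TCACNCCAC, searched on both strands, was in 0 of 5 and in 0.976% of all windows. Its core CACCCCAC, which overlaps it when N is C, was in 0 of 5 and in 2.24% of all. These counts describe the letters in these windows only.

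Set against fibroblast-like cells, most of the 7 enzymes were higher in oligodendrocyte-lineage-like cells, while in astrocyte-like cells Hmgcs1 and Dhcr7 were the 2 past 2-fold, in WT only under the wider limit on mitochondrial UMIs. At least 2-fold higher levels in oligodendrocyte-lineage-like than in fibroblast-like cells were found for 6 of 7 members in the WT library, where 20.6% of all genes tested (at least 20 UMIs over both groups) met the same rule. The Nuc1 library had 5 of 7, with a background of 22.7%. The same 5 genes, Hmgcs1, Idi1, Fdft1, Sqle and Dhcr7, met it in both libraries, against 12.1% of genes. The Nuc1 group held 10 cells, and classing by markers without clustering placed 3 of them in the lineage. The median log2 ratio of the 7 was 1.72 (WT) and 1.86 (Nuc1), against 0.05 and -0.15 over all genes tested. Since the 7 were chosen with earlier results of these data known, these counts and medians are descriptions and no test of the pathway.

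Astrocyte-like cells had at least 2-fold higher levels than fibroblast-like cells for 2 of 7 members in the WT library (background 16.1%) and for 2 of 7 in the Nuc1 library (15.3%). They were Hmgcs1 and Dhcr7 both times, and 11.6% of genes met the rule in both libraries. The median log2 ratio of the 7 was 0.92 (WT) and 0.76 (Nuc1). Over all genes tested the median was -0.14 and -0.31, and when ratios were centred on it 4 and 5 members were at least 2-fold higher. Centring raises the ratio of every gene here, and the share of all genes past 2-fold after centring is not given. With a limit of 10% mitochondrial UMIs, which left 27 WT astrocyte-like cells, the WT count was 0.

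**Figure D1:**
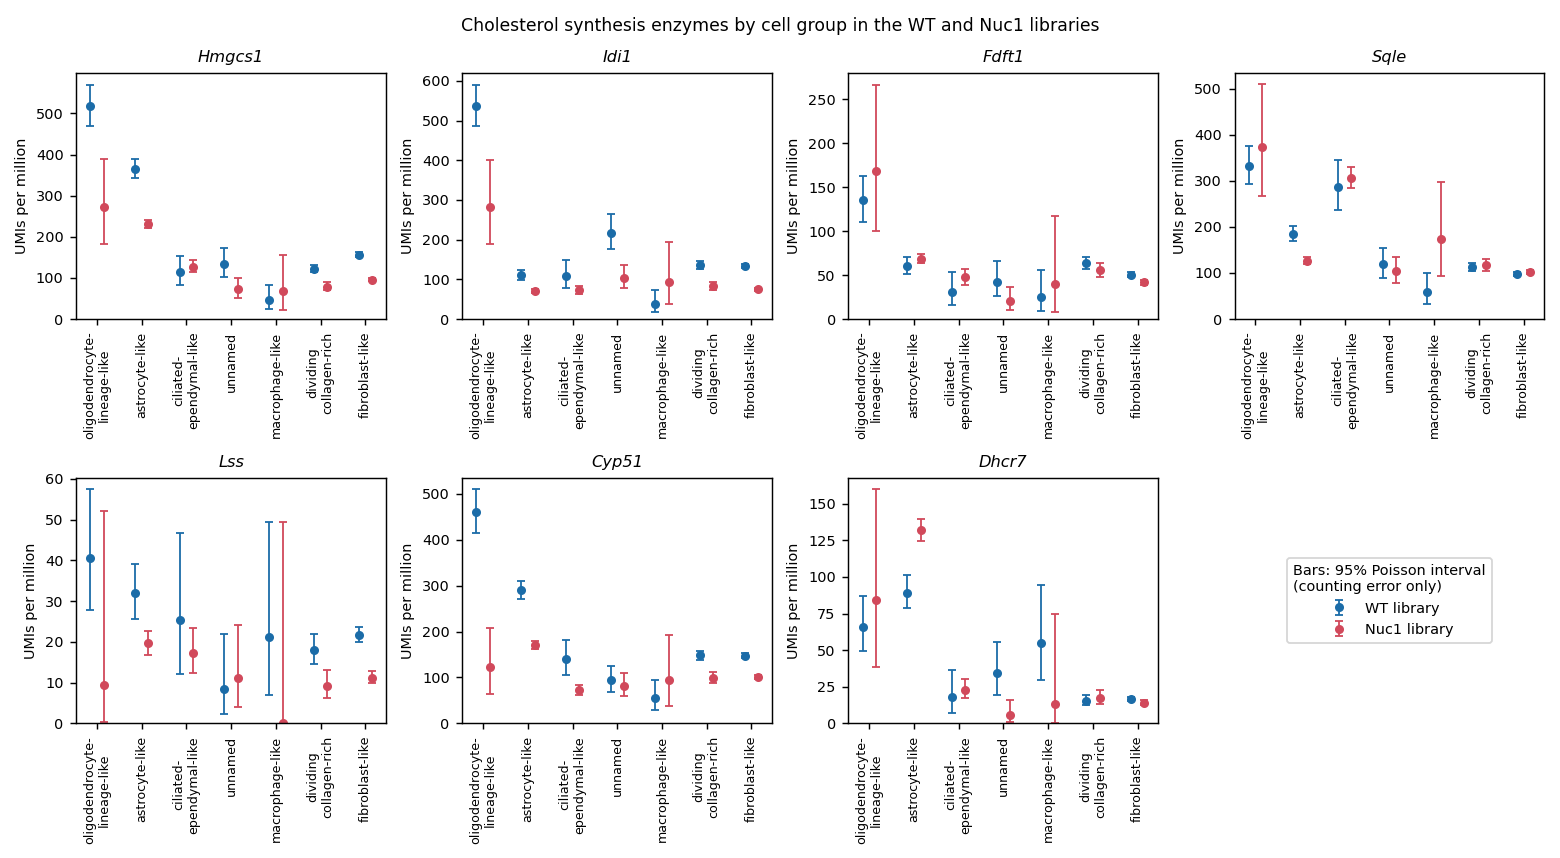
CPM (y axis, linear, from 0) of each enzyme in 7 cell groups (x axis) of the WT library (blue) and the Nuc1 library (red), with exact 95% Poisson intervals. Oligodendrocyte-lineage-like cells stand highest for Idi1 and Fdft1 in both libraries, and Sqle is also high in ciliated-ependymal-like cells. Dhcr7 is highest by value in astrocyte-like cells. Intervals are wide for the 10 Nuc1 oligodendrocyte-lineage-like cells.

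Hmgcs1 joins acetyl-CoA to acetoacetyl-CoA in the step before mevalonate. In WT oligodendrocyte-lineage-like cells its level was 518 CPM (407 UMIs, 469 to 570), in astrocyte-like cells 366 (344 to 389), and in fibroblast-like cells 157 (152 to 162). The Nuc1 library gave 272 (29 UMIs, 182 to 390), 232 (222 to 242) and 96.1 (91.8 to 101) in the same order. The 3 groups thus had the same order in both libraries, although in the Nuc1 library the interval of the step from oligodendrocyte-lineage-like to astrocyte-like cells included 0 (log2 0.23, -0.35 to 0.75). Over fibroblast-like cells the log2 ratio in oligodendrocyte-lineage-like cells was 1.72 (1.57 to 1.87) in WT and 1.5 (0.92 to 2.03) in Nuc1. For astrocyte-like cells it was 1.22 (1.12 to 1.32) and 1.27 (1.18 to 1.36), and the difference of 0.05 between the libraries had an interval from -0.09 to 0.18. Hmgcs1 was therefore the member whose astrocyte-like excess was both above 2-fold and closest between the libraries. With a limit of 10% mitochondrial UMIs, which left 27 WT astrocyte-like cells, the WT astrocyte-like ratio was 0.75. Every fibroblast-like cluster was below both glial groups, with 105 to 179 CPM in WT and 88.6 to 106 in Nuc1.

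Idi1, isopentenyl diphosphate isomerase, balances the isoprene units from which squalene is assembled. Its level in WT cells was 537 CPM in the oligodendrocyte lineage (422 UMIs, 487 to 590), 110 in astrocyte-like cells (98.0 to 123) and 133 in fibroblast-like cells (129 to 138). Nuc1 cells had 281 (30 UMIs, 190 to 401), 71.0 (65.5 to 76.7) and 75.3 (71.5 to 79.2). Idi1 separated the glial groups more than any other member: oligodendrocyte-lineage-like over astrocyte-like cells came to a log2 ratio of 2.29 (2.07 to 2.50) in WT and 1.99 (1.41 to 2.51) in Nuc1. Over fibroblast-like cells the oligodendrocyte-lineage-like ratio was 2.01 (1.86 to 2.16) and 1.90 (1.33 to 2.42). The astrocyte-like ratio was -0.28 (-0.45 to -0.11) in WT and -0.09 (-0.22 to 0.05) in Nuc1. Centring on the median of all genes turned the Nuc1 value to 0.23, and a limit of 10% mitochondrial UMIs turned the WT value to 0.21, so no direction is given for Idi1 in astrocyte-like cells. The next highest group was the unnamed cluster, with 217 CPM in WT (177 to 264) and 104 in Nuc1 (78.5 to 135).

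Fdft1, squalene synthase, commits farnesyl units to sterols. Its WT levels were 135 CPM in oligodendrocyte-lineage-like cells (106 UMIs, 110 to 163), 60.3 in astrocyte-like cells (51.6 to 70.0) and 50.6 in fibroblast-like cells (47.8 to 53.5). In the Nuc1 library they were 169 (18 UMIs, 99.9 to 266), 68.6 (63.3 to 74.3) and 41.9 (39.0 to 44.8). Oligodendrocyte-lineage-like cells were the highest of the 7 groups in both libraries, and the interval of the step to the next group excluded 0 in each. The log2 ratio over fibroblast-like cells was 1.41 (1.11 to 1.70) in WT and 2.01 (1.25 to 2.68) in Nuc1. In astrocyte-like cells it was 0.25 (0.01 to 0.49) and 0.71 (0.56 to 0.87), and the WT value turned to -0.14 when each cell was thinned to 5000 UMIs.

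Sqle, squalene epoxidase, adds the oxygen needed for ring closure and is a rate-limiting step of the later pathway. It had 332 CPM in WT oligodendrocyte-lineage-like cells (261 UMIs, 293 to 375), 185 in astrocyte-like cells (170 to 202) and 98.3 in fibroblast-like cells (94.4 to 102). The Nuc1 values were 375 (40 UMIs, 268 to 510), 126 (119 to 134) and 103 (98.4 to 107). Ciliated-ependymal-like cells came next to the oligodendrocyte lineage for Sqle in both libraries, at 288 in WT (113 UMIs, 237 to 346) and 306 in Nuc1 (729 UMIs, 284 to 329). Its level there could not be told from that of the oligodendrocyte lineage by counting error, with a log2 step of 0.21 (-0.12 to 0.54) in WT and 0.29 (-0.21 to 0.75) in Nuc1. Over fibroblast-like cells the oligodendrocyte-lineage-like ratio was 1.76 (1.57 to 1.94) and 1.86 (1.37 to 2.31). For astrocyte-like cells it was 0.92 (0.78 to 1.05) in WT but 0.29 (0.19 to 0.40) in Nuc1, a difference of -0.62 (-0.80 to -0.45), the largest decrease among the 7 in that comparison.

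Lss, lanosterol synthase, closes the rings of the sterol skeleton and had the fewest UMIs of the 7 over these groups. WT cells had 40.7 CPM in the oligodendrocyte lineage (32 UMIs, 27.8 to 57.5), 31.9 in astrocyte-like cells (25.7 to 39.2) and 21.7 in fibroblast-like cells (19.9 to 23.7). Nuc1 cells had 9.36 (1 UMI, 0.237 to 52.2), 19.6 (16.8 to 22.7) and 11.2 (9.79 to 12.8). Of the astrocyte-like ratios, 0.55 (0.21 to 0.88) in WT and 0.80 (0.51 to 1.10) in Nuc1, both intervals excluded 0. The WT value turned to -0.47 when the limit on mitochondrial UMIs was 10%. The oligodendrocyte-lineage-like ratio was 0.90 (0.34 to 1.42) in WT, and the single Nuc1 UMI gave -0.26 with an interval from -5.57 to 2.23, so that at this depth no difference was detectable.

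Cyp51, lanosterol 14-alpha-demethylase, takes the first methyl group off lanosterol. Its WT levels were 462 CPM in oligodendrocyte-lineage-like cells (363 UMIs, 415 to 512), 290 in astrocyte-like cells (271 to 311) and 147 in fibroblast-like cells (142 to 152). The Nuc1 library had 122 (13 UMIs, 64.8 to 208), 170 (162 to 179) and 100 (96.0 to 105). The order of the glial groups was thus not the same in the libraries, and the Nuc1 step between them, -0.48 on the log2 scale, had an interval from -1.40 to 0.29. Over fibroblast-like cells the oligodendrocyte-lineage-like ratio was 1.65 (1.49 to 1.80) in WT and 0.28 (-0.63 to 1.06) in Nuc1. The difference of -1.37 (-2.17 to -0.57) was the only one of the 7 oligodendrocyte-lineage-like differences whose interval excluded 0. The astrocyte-like ratio was just under 2-fold in WT, at 0.98 (0.87 to 1.09), and 0.76 (0.66 to 0.86) in Nuc1.

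Dhcr7, 7-dehydrocholesterol reductase, makes cholesterol in the last step of one arm of the pathway. Its level was 89.3 CPM in WT astrocyte-like cells (252 UMIs, 78.7 to 101), 66.1 in oligodendrocyte-lineage-like cells (52 UMIs, 49.4 to 86.7) and 16.6 in fibroblast-like cells (15.0 to 18.3). Nuc1 cells had 132 (1172 UMIs, 125 to 140), 84.3 (9 UMIs, 38.5 to 160) and 14.2 (12.5 to 15.9). Dhcr7 was the member with the largest astrocyte-like excess in both libraries. The log2 ratio of astrocyte-like over fibroblast-like cells was 2.43 (2.19 to 2.66) in WT and 3.22 (3.03 to 3.42) in Nuc1, a difference of 0.79 (0.50 to 1.09). In oligodendrocyte-lineage-like cells it was 1.99 (1.55 to 2.41) and 2.57 (1.43 to 3.52). The interval of the step between the glial groups included 0 in each library. Without cells that had a UMI of Mki67 or Top2a, the Nuc1 oligodendrocyte-lineage-like ratio was 0.48, on 7 cells. In the 4 fibroblast-like clusters Dhcr7 ranged from 13.9 to 18.6 in WT and from 11.1 to 17.9 in Nuc1, so none came near a glial group. Under the limit of 10% mitochondrial UMIs the WT astrocyte-like ratio was 0.79.

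Summed over the 7 enzymes, oligodendrocyte-lineage-like cells had 2090 CPM in WT (1990 to 2193) and 1311 in Nuc1 (1103 to 1547). Astrocyte-like cells had 1133 (1094 to 1173) and 819 (801 to 838), and fibroblast-like cells 625 (615 to 635) and 442 (433 to 451). The order of these 3 groups was the same in both libraries. Single cells of a group differed widely: the median WT oligodendrocyte-lineage-like cell had 1813 CPM, with a 10th percentile of 486 and a 90th of 3748. In fibroblast-like cells the median was 342 and the 90th percentile 1555, below the median cell of the oligodendrocyte lineage. Of the 140 UMIs of the Nuc1 oligodendrocyte-lineage-like cells, 1 cell held 31.4%. Without the cell of most UMIs in each group the number of members at least 2-fold above fibroblast-like cells was still 6 in WT and 5 in Nuc1.

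**Figure D2:**
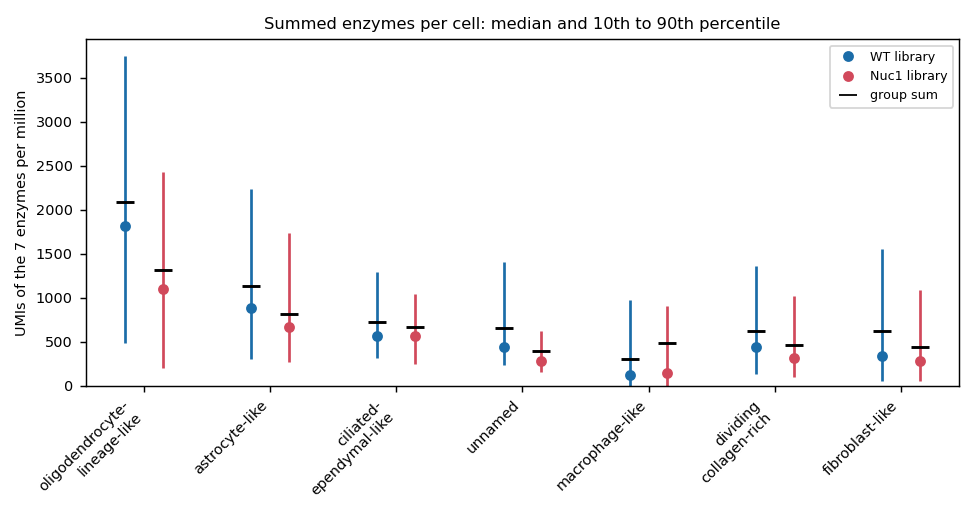
CPM of the 7 enzymes together in single cells (y axis, linear) in 7 cell groups (x axis); points are medians over cells, vertical lines run from the 10th to the 90th percentile, and black dashes are group sums. The WT oligodendrocyte-lineage-like median of 1813 lies above the fibroblast-like 90th percentile of 1555.

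With each cell thinned to 5000 UMIs, 85.7% of 49 WT oligodendrocyte-lineage-like cells, 61.7% of 107 astrocyte-like cells and 37.7% of 1510 fibroblast-like cells had a UMI of Hmgcs1 (92.3%, 91.7% and 59.5% before thinning). Idi1 was found in 79.6%, 32.7% and 36.0% of the same thinned WT cells. Dhcr7 was found in 28.6%, 37.4% and 7.68%. These shares kept the contrasts of the levels, with Idi1 most frequent in the oligodendrocyte lineage and Dhcr7 in both glial groups. The median depth before thinning was 12003 UMIs in these oligodendrocyte-lineage-like cells, 25874 in astrocyte-like cells and 13217 in fibroblast-like cells. Thinning left out 3 WT oligodendrocyte-lineage-like cells, 1 astrocyte-like and 15 fibroblast-like cells, and 4 of the 10 Nuc1 oligodendrocyte-lineage-like cells. In thinned Nuc1 astrocyte-like cells Dhcr7 was found in 39.8% of 344, against 6.21% of 1143 fibroblast-like cells. No group in these libraries was known to lack the pathway, so the share that free RNA alone would give could not be set, and the shares are not read as shares of expressing cells. The WT macrophage-like cells, at a median of 8493 UMIs, had a UMI of Hmgcs1 in 26.1% of 23 cells, and in 13.3% of 15 cells after thinning. Dhcr7 was found in 2 of the 23 cells (8.70%), where 1 cell held 12 of its 13 UMIs, and in 2 of 15 (13.3%) after thinning. The thinned share was above that in thinned fibroblast-like cells but rests on 2 cells.

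Other measures moved with the cell groups. A UMI of Mki67 or Top2a, genes of dividing cells, was present in 46.2% of WT and 30% of Nuc1 oligodendrocyte-lineage-like cells, against 6.75% and 5.99% of fibroblast-like cells. The dividing collagen-rich cells, at 90.8% and 92.0%, had summed enzyme levels of 616 and 459 CPM, next to 625 and 442 in fibroblast-like cells. With all cells carrying such a UMI left out, 7 of 7 members in WT and 4 of 7 in Nuc1 were at least 2-fold higher in the oligodendrocyte lineage, on 28 and 7 cells. The share of all genes past 2-fold in those cells is not given. Fibroblast markers summed to 383 and 197 CPM in oligodendrocyte-lineage-like cells, of which Pdgfra, also a gene of oligodendrocyte precursors, was 313 and 178. In astrocyte-like cells they summed to 600 and 484. Astrocyte markers summed to 7406 and 8428 in oligodendrocyte-lineage-like cells, mainly Ckb and Dbi, with Gfap at 254 and 84.3. With glial cells over 300 CPM of Col1a1, Col3a1, Dcn and Lum left out, the oligodendrocyte-lineage-like counts were still 6 and 5 members. Mitochondrial genes took a median of 12.6% and 10.1% of the UMIs of an oligodendrocyte-lineage-like cell and 12.9% and 10.9% of an astrocyte-like cell, against 9.21% and 9.0% in fibroblast-like cells. Their part in the enzymes' levels was not tested.

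The other enzymes of the pathway were taken from a list of 13, of which 12 had enough UMIs and Mvk (mevalonate kinase) did not. In WT oligodendrocyte-lineage-like cells 5 of the 12 were at least 2-fold above fibroblast-like cells, and 20.6% of all genes tested met the same rule. In Nuc1 it was 2 of 12, against 22.7% of all genes tested. The median log2 ratio of the 12 was 0.66 (WT) and 0.51 (Nuc1), against 0.05 and -0.15 over all genes tested. Fdps, which makes farnesyl diphosphate, had a ratio of 1.46 (1.32 to 1.59) and 1.26 (0.79 to 1.69) in the oligodendrocyte lineage. Mvd, mevalonate diphosphate decarboxylase, had 1.94 (1.53 to 2.33) in WT and 0.66 on 3 UMIs in Nuc1.

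Ebp, Nsdhl and Msmo1 act after Cyp51 and came lowest when enzymes with the same direction in both libraries were ranked by the smaller of their 2 ratios. Ebp, which shifts a double bond of the sterol ring, had a log2 ratio of -0.35 (-1.07 to 0.29) in WT and -0.25 (-2.53 to 1.31) in Nuc1 oligodendrocyte-lineage-like cells. Nsdhl, a sterol dehydrogenase, had -0.04 (-0.64 to 0.50) and -0.78 (-3.83 to 1.08). Msmo1, which oxidises the sterol's methyl groups, had 1.09 (0.88 to 1.30) and 0.30 (-0.65 to 1.11), so that it was among the lowest by its Nuc1 value alone. None of the 12 was at least 2-fold higher in astrocyte-like cells in either library, against 16.1% (WT) and 15.3% (Nuc1) of all genes tested. The median log2 ratio of the 12 in astrocyte-like cells was -0.24 (WT) and -0.29 (Nuc1), against -0.14 and -0.31 over all genes tested. By value, 4 of the 12 were higher there in WT and 5 in Nuc1. Ebp had -1.30 (-1.82 to -0.83) there in WT and -1.44 (-1.75 to -1.15) in Nuc1, while Msmo1 was 0.67 (0.53 to 0.80) and 0.93 (0.83 to 1.03). Acat2 and Hsd17b7 had 0 UMIs in the Nuc1 oligodendrocyte lineage, where their fibroblast-like levels of 2.31 and 6.26 CPM were under the limit that a count of 0 allows.

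**Figure D3:**
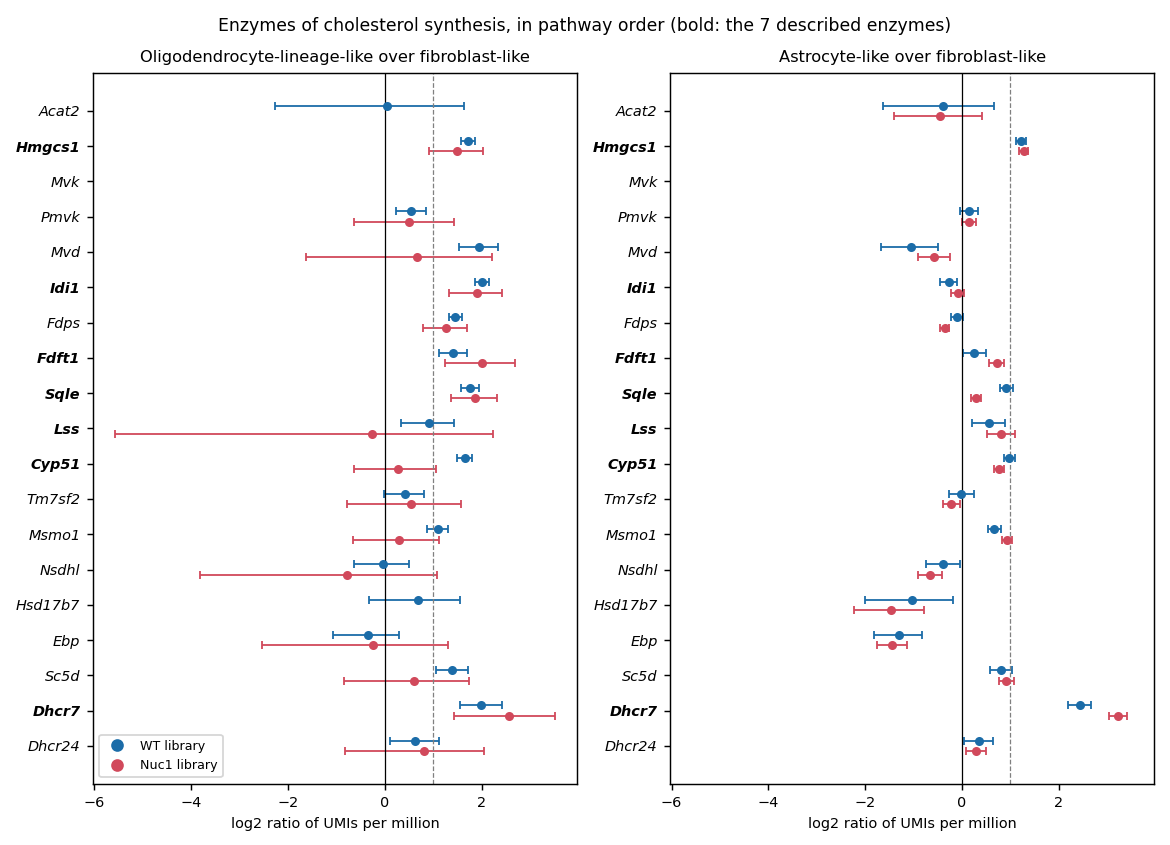
Log2 ratio of CPM (x axis, dashed line at 2-fold) for 19 enzymes in pathway order (y axis, the 7 described ones in bold), oligodendrocyte-lineage-like (left) and astrocyte-like (right) over fibroblast-like cells, in the WT (blue) and Nuc1 (red) libraries with exact 95% intervals; genes under 20 UMIs or at 0 in the glial group have no point. In the WT oligodendrocyte lineage the early enzymes Hmgcs1, Mvd, Idi1 and Fdps stand to the right of the line. Later enzymes do as well, Fdft1, Sqle, Cyp51 and Dhcr7 among them. In astrocyte-like cells Hmgcs1 and Dhcr7 stand to the right of it in both libraries.

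Genes that sense sterols were less uniform. Srebf2, which encodes SREBP2, had 103 CPM in WT oligodendrocyte-lineage-like cells, 61.0 in astrocyte-like cells and 55.6 in fibroblast-like cells, and 56.2 (6 UMIs), 64.3 and 52.5 in Nuc1. Its log2 ratio in the oligodendrocyte lineage was 0.89 (0.55 to 1.21) in WT and 0.10 (-1.35 to 1.23) in Nuc1. Insig1, which holds SREBP2 back when sterols are plentiful and is itself one of its targets, had 1.12 (0.88 to 1.36) and 0.51 (-0.81 to 1.56). Insig2, its relative, had 1 UMI in the WT oligodendrocyte lineage (log2 ratio -2.05) and 0 UMIs in Nuc1. Of the 8 sensing genes with enough UMIs, 1 in each library was at least 2-fold higher in the oligodendrocyte lineage, where 20.6% and 22.7% of all genes were. It was Insig1 in WT and, in Nuc1, Mbtps2 on 4 UMIs (log2 ratio 2.04, and 0.03 in WT), which was named after its values were seen. Astrocyte-like cells had 0 in WT and 1 in Nuc1.

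The counts of the remaining lipid lists are given as descriptions, beside the 20.6% (WT) and 22.7% (Nuc1) of all genes that met the rule in the oligodendrocyte lineage and the 16.1% and 15.3% in astrocyte-like cells. Apart from Fasn, the genes of these lists that met it in the Nuc1 oligodendrocyte lineage had 1 to 5 UMIs there. Of 8 genes of cholesterol transport and storage, 3 in each library were at least 2-fold higher in the oligodendrocyte lineage, and 4 in WT and 3 in Nuc1 astrocyte-like cells. Soat1, which stores cholesterol as esters, had an oligodendrocyte-lineage-like ratio of 2.55 (1.52 to 3.46) in WT on 12 UMIs and 2.19 on 1 UMI in Nuc1. Npc2, which carries cholesterol out of lysosomes, had -1.88 (-2.23 to -1.56) and -1.81 (-2.76 to -1.01). In fatty acid synthesis, 2 of 9 genes in WT and 2 of 8 in Nuc1 were at least 2-fold higher in the oligodendrocyte lineage, and 4 of 9 in astrocyte-like cells of each library. Fasn, fatty acid synthase, had 1.43 (1.14 to 1.70) and 1.45 (0.61 to 2.18) in the oligodendrocyte lineage. Srebf1, whose product drives fatty acid synthesis, differed from Fasn: it had 4 UMIs there in WT and 0 in Nuc1, against 34.8 and 16.2 CPM in fibroblast-like cells and 251 and 186 in astrocyte-like cells. The isoprenoid branch had 1 of 5 genes in WT and 3 of 5 in Nuc1 at least 2-fold higher in the oligodendrocyte lineage, and 1 and 0 of 5 in astrocyte-like cells. For oxysterol and LXR genes the oligodendrocyte lineage had 0 of 6 and 1 of 7, and astrocyte-like cells 5 and 4 of 7.

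Between the genotypes, Hmgcs1, Idi1, Lss and Cyp51 had lower levels in the Nuc1 library, by less than 2-fold in fibroblast-like and astrocyte-like cells. Sqle, Fdft1 and Dhcr7 differed in direction between groups by value, and only Dhcr7 had intervals on both sides of 0. In fibroblast-like cells 0 of 7 members were at least 2-fold apart (background 12.5%), and 1 of 7 was higher in Nuc1, against 6591 of 12054 genes. Their median log2 ratio of Nuc1 over WT was -0.55, against 0.04 over all genes tested. The log2 ratio was -0.95 for Lss (-1.19 to -0.72), -0.82 for Idi1 (-0.91 to -0.73), -0.71 for Hmgcs1 (-0.79 to -0.63) and -0.55 for Cyp51 (-0.63 to -0.47). Sqle stood apart from these, at 0.07 (-0.02 to 0.15). Fdft1 had -0.27 (-0.40 to -0.14) and Dhcr7 -0.23 (-0.46 to -0.005). Since the fibroblast-like clusters were not filled alike, each was compared by itself. Hmgcs1, Idi1, Lss and Cyp51 were lower in Nuc1 in 4 of 4 clusters, and for Idi1 all 4 intervals lay below 0, with ratios from -0.90 to -0.61. Hmgcs1 ranged from -1.02 in the cluster led by Lum to -0.03 (-0.38 to 0.34) in the one led by Inmt. Fdft1 and Dhcr7 were lower in 2 of 4 clusters and Sqle in 1 of 4.

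In astrocyte-like cells 0 of 7 were at least 2-fold apart (background 11.2%), and the median log2 ratio was -0.63 against -0.12 over all genes. Cyp51 had -0.77 (-0.89 to -0.65), and Hmgcs1, Idi1, Lss and Sqle had ratios from -0.70 to -0.56. Dhcr7 went the other way, at 0.56 (0.37 to 0.77), and Fdft1 was 0.19 (-0.06 to 0.44). Among oligodendrocyte-lineage-like cells 2 of 7 were at least 2-fold apart (background 21.0%): Cyp51 at -1.92 (-2.85 to -1.13) and Lss at -2.12 (-7.47 to 0.46), on 13 and 1 Nuc1 UMIs. Hmgcs1 and Idi1 had -0.93 (-1.53 to -0.39) and -0.93 (-1.52 to -0.40) there, whereas 3 of 7 were higher by value with intervals that included 0: Sqle at 0.17 (-0.34 to 0.66), Fdft1 at 0.32 (-0.49 to 1.05) and Dhcr7 at 0.35 (-0.86 to 1.38). Hmgcs1, Idi1 and Cyp51 thus had intervals below 0 in all 3 groups, and Lss was below 0 by value in all 3. With cells thinned to 5000 UMIs, the Idi1 ratio in oligodendrocyte-lineage-like cells shrank to -0.20, on 6 Nuc1 cells. The group's make-up also differed between the libraries. Mbp, a myelin protein gene, had 2876 CPM in WT and 318 in Nuc1 cells of this group, and when cells were classed by their markers without clustering, 45 of the 52 WT cells but 3 of the 10 Nuc1 cells were again placed in the lineage. The part of this in the enzymes' levels was not tested. When cells with a UMI of Mki67 or Top2a were left out, or cells were thinned to 5000 UMIs, 5 of 7 were at least 2-fold apart in the oligodendrocyte lineage, on 7 and 6 Nuc1 cells. The Dhcr7 ratio turned to -2.28 under the first of these settings and was 1.03 under the second. The share of all genes past 2-fold in these smaller sums is not given, and the 21.0% is not their background.

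**Figure D4:**
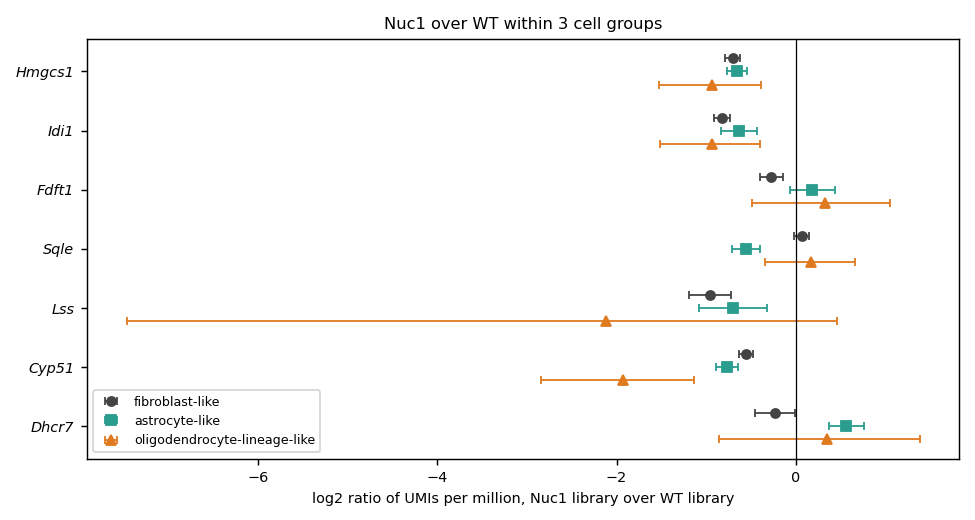
Log2 ratio of CPM in the Nuc1 library over the WT library (x axis) for each enzyme (y axis) in fibroblast-like cells (circles), astrocyte-like cells (squares) and oligodendrocyte-lineage-like cells (triangles), with exact 95% intervals for counting error. Hmgcs1, Idi1 and Cyp51 lie below 0 in all 3 groups, and Dhcr7 in astrocyte-like cells lies above it at 0.56.

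The other enzymes had a median log2 ratio of Nuc1 over WT of -0.27 in fibroblast-like cells, and 1 of 12 was higher, Ebp at 0.04 (-0.11 to 0.19). Fdps had -0.46 (-0.52 to -0.40). Of 8 sterol-sensing genes 1 was higher, Insig2 at 0.68 (0.33 to 1.03), and the median was -0.28, with Insig1 at -0.98 (-1.10 to -0.87). Srebf2 was at -0.08 (-0.20 to 0.03). The genes that answer tissue dissociation, 8 early response and stress genes, also differed between the libraries, with 5419 CPM in WT and 3170 in Nuc1 fibroblast-like cells, 3423 and 1574 in astrocyte-like cells, and 5798 and 3305 in oligodendrocyte-lineage-like cells. Their part in the enzymes' levels was not tested.

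Over the 22 sums of a cluster in a library, the members followed each other to different degrees. Pearson's r of log2(CPM + 5) was highest for Hmgcs1 and Cyp51 (0.87) and lowest for Sqle and Lss (0.10). Among 8466 genes with at least 500 UMIs that are in no sterol list, the pattern closest to the mean of the 7 was that of Scrg1 (r = 0.91), followed by Samd4b (0.90), Hr (0.89), Col11a2 (0.87) and Fasn (0.86). The 22 points share their libraries, their depth and a few cell types, so these values describe likeness only. Scrg1 had 827 and 506 CPM in the oligodendrocyte lineage and 8.62 and 4.98 in fibroblast-like cells, and was itself among the leading genes of the oligodendrocyte-lineage-like cluster.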

How the data were processed

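Per the submitters' processing notes, the authors used Cell Ranger 3.1.0, STAR 2.7 and Seurat 3.1.0 and 3.1.1, and deposited 1 matrix of UMI counts per library. The genome build is not given in the sources used here. The 7 enzymes and all gene lists were chosen with earlier results of these data known. Barcodes under 500 genes or over 20% mitochondrial UMIs (13 genes) were dropped, leaving 1968 WT and 1793 Nuc1, and 7 and 13 Scrublet calls (scanpy 1.11.5, expected rate 2%) left out. Scrublet marked few cells, so doublets may remain. Symbols listed more than once (99) were not used. Cells were clustered with Seurat 5.3.0 (R 4.3.3, anchor integration, 30 components, resolution 0.5, seed 1) on 1992 variable genes without sterol genes, and clusters named from marker lists among their 10 leading genes. Names were rebuilt here and may differ from the study's. UMIs were summed per group and library and scaled to counts per 1000000 (CPM). Levels have exact Poisson intervals and ratios exact conditional ones (Python 3.11.15, numpy 2.4.6, scipy 1.17.1). Intervals of a difference between libraries are normal approximations for counting error. Genes named were the 7 members, Srebf2, the highest and lowest ratios of each list (3 each for the other enzymes), and the 5 closest patterns, less some genes not reported here. Results were recomputed under 16 other settings, TMM scaling (edgeR 4.0.16) among them, and 3 more chosen after the data were seen. Scripts were tested on simulated data.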

Additional observations from a re-analysis of the deposited data

Results flagged for a closer look

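Lss, lanosterol synthase, had opposite signs in the libraries: its log2 ratio of oligodendrocyte-lineage-like over fibroblast-like cells was 0.90 in WT (32 UMIs) and -0.26 in Nuc1, where it rests on 1 UMI in 10 cells. No test between the genotypes was possible with 1 library each, and the counting interval of the difference (-1.17, from -4.05 to 1.71) included 0.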

How the results depend on the processing

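The number of enzymes at least 2-fold higher in oligodendrocyte-lineage-like than in fibroblast-like cells was 6 or 7 in WT and 4 or 5 in Nuc1 under every alternative that gave it. Resolution 0.2 and the limit of 10% mitochondrial UMIs gave no oligodendrocyte value, since oligodendrocyte and macrophage cells shared a cluster. Other counts moved. When the mitochondrial limit was 10%, with 27 astrocyte-like cells left in WT and 177 in Nuc1, 0 rather than 2 enzymes were 2-fold higher in WT astrocyte-like cells, and 1 in fibroblast-like and 2 in astrocyte-like cells were 2-fold apart between genotypes (0 in each before). Under that limit the WT astrocyte-like ratio turned to 0.21 for Idi1 and to -0.47 for Lss, and Lss in Nuc1 over WT astrocyte-like cells to 0.20. Thinning to 5000 UMIs turned the WT astrocyte-like ratio of Fdft1 to -0.14, and gave 1 enzyme apart between genotypes in fibroblast-like and 5 in oligodendrocyte-lineage-like cells (2 before). Leaving out cells with a UMI of Mki67 or Top2a also gave 5 there, and TMM scaling gave 4. Centring on the median of all genes gave 4 enzymes in WT and 5 in Nuc1 astrocyte-like cells, and TMM scaling 4 in Nuc1. A fold of 1.5 gave 4 and 5 there, and 3, 4 and 4 apart between genotypes in fibroblast-like, oligodendrocyte-lineage-like and astrocyte-like cells. Equal weight for each fibroblast-like cluster, chosen after seeing the data, gave 1 apart. The causes were not tested. No paired analysis was possible because the genotypes had 1 library apiece. Lss had 0 UMIs in the Nuc1 oligodendrocyte lineage, and so no ratio, after thinning, without cells with a UMI of Mki67 or Top2a, and without the cell of most enzyme UMIs. The 10 Nuc1 oligodendrocyte-lineage-like cells limit every value of that group.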

Other observations

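Apoe, the apolipoprotein that carries cholesterol between cells, was chosen after its values were seen. It had 2911 CPM in WT and 4483 in Nuc1 astrocyte-like cells, and 128 and 281 in oligodendrocyte-lineage-like cells, where 1 WT cell held 94 of the 101 UMIs. In fibroblast-like cells it had 210 and 1739, a log2 ratio of Nuc1 over WT of 3.05, against a median of -0.55 for the 7 enzymes in the same cells. The fibroblast-like clusters were not filled alike in the libraries, and no Apoe ratio within a single cluster is given. Of the 7 genes of the oxysterol and LXR list, 5 were at least 2-fold apart between the libraries in fibroblast-like cells, where 12.5% of all genes were. Of these 5, 4 were higher and 1 was lower in Nuc1, and none had more than 6.92 CPM in either library. No explanation was tested.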
